A study of Mus musculus with 4 samples.

Results

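The *Hoxd* cluster genes were followed in single-cell transcriptomes of 4 mouse neural stem cell (NSC) lines. The 7 members were chosen by gene symbol (*Hoxd1*, *Hoxd3*, *Hoxd4*, *Hoxd8*, *Hoxd9*, *Hoxd10*, and the antisense transcript *Hoxd3os1*) out of 28277 genes listed for at least 1 line. The lines came from 129-strain epiblast stem cells (EpiSCs), pluripotent cells of the postimplantation epiblast, that were moved to medium with EGF and FGF2, each at 10 ng/ml. XN4 and XN1 were derived and grown with 10 µM XAV939, a Wnt antagonist obtained from a different supplier for each of the 2 lines, KN1 with no addition, and CN4 with 2 µM CHIR99021, a Wnt agonist. Crystals formed in culture with the XAV939 used for XN1, which the study describes as lowering its effective concentration. The comparison asks how the level of Wnt signal during derivation relates to the anteroposterior genes the cells transcribe. As there was 1 library per line, no test between lines was possible, and differences between lines and between libraries cannot be told apart. Every interval given here (95%, exact binomial for fractions of cells and exact Poisson for reads) covers at most counting error. Reads were not collapsed to molecules, so intervals on reads, and on shares and ratios of reads, are too narrow even for that.

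Hox genes encode homeodomain transcription factors that give cells along the body axis their position. In each mouse cluster, the genes lie on the chromosome in the order in which they are used from head to tail, so that *Hoxd1*, *Hoxd3*, and *Hoxd4* mark more anterior levels (hindbrain and neck), *Hoxd8* the trunk, and *Hoxd9* and *Hoxd10* the posterior trunk. The posterior genes of this cluster are also known for their use in limb buds and in other mesoderm. Genes with the same number in the *Hoxa*, *Hoxb*, *Hoxc*, and *Hoxd* clusters are paralogs. Retinoic acid, Wnt, and FGF signals open the clusters in the embryo, and Polycomb proteins hold them silent elsewhere.

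In GENCODE M21 (build GRCm38), the 9 coding *Hoxd* genes occupy 96833 bases of chromosome 2, from 74668310 to 74765142, all on the plus strand. *Hoxd8* extends from 74704615 to 74707933, *Hoxd9* from 74697727 to 74700208, and *Hoxd4* from 74711929 to 74729160. *Hoxd3os1*, a long noncoding RNA on the minus strand, runs from 74703248 to 74716130. Its span contains all of *Hoxd8* within intronic sequence, with 0 bases of shared exon, and it overlaps the exons of *Hoxd3* and of *Hoxd4* by 347 bases each. *Hoxd3* and *Hoxd4* overlap on the same strand with 388 shared exonic bases. Since intronic reads were counted for XN4, XN1, and CN4 and the use of strand was not given in the sources used here, reads of *Hoxd3os1* and *Hoxd8*, and of *Hoxd3* and *Hoxd4*, cannot be fully told apart.

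The RefSeq promoter windows (GRCm38.p6, 250 bases before to 50 after the annotated start) are shown for the 4 members that reached 1% of the cells in both XN4 and CN4, since these carry the results below. For *Hoxd4*, the RefSeq start differs from the GENCODE start given above (74711929), which lies outside the window shown. Its motifs are those of the RefSeq start only. Capitals mark the letters of 4 short motifs searched on both strands. The first is CTTTGA, the core bound by LEF/TCF proteins, which act in the nucleus at the end of the Wnt pathway. The retinoid half-site, bound by nuclear receptors for retinoic acid, was searched as AGGTCA. The core bound by proteins of the caudal (CDX) family was searched as TTTATG. The last, bound by Hox proteins together with PBX, was TGATTNAT. No capitals below belong to more than 1 motif.
*Hoxd8* (chr2:74704365-74704664, plus strand): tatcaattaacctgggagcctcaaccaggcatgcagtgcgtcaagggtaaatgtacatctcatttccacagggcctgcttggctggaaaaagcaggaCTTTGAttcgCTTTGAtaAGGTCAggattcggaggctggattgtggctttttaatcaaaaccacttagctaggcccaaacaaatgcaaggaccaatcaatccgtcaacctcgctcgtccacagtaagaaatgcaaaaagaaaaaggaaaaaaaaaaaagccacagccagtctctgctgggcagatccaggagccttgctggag
*Hoxd9* (chr2:74697513-74697812, plus strand): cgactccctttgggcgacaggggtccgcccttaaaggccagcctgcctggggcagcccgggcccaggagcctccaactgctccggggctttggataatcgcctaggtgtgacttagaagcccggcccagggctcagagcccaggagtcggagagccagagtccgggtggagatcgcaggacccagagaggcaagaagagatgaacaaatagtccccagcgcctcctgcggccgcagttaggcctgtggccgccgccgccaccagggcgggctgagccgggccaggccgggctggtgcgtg
*Hoxd4* (chr2:74721728-74722027, plus strand): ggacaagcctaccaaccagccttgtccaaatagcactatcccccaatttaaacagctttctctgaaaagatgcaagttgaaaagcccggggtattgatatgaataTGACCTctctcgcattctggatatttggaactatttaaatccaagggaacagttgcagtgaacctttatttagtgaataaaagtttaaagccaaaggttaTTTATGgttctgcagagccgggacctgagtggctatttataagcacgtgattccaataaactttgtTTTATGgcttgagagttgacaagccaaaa
*Hoxd3os1* (chr2:74716081-74716380, minus strand): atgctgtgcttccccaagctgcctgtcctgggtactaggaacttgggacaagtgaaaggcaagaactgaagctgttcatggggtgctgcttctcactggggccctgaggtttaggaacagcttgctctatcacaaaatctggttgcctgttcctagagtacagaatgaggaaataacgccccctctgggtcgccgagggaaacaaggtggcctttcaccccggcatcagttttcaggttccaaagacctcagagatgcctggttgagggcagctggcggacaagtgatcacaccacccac

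The *Hoxd8* window held 2 LEF/TCF cores and 1 retinoid half-site. The *Hoxd4* window held 1 retinoid half-site, in reverse, and 2 CDX cores, whereas none of the 4 motifs occurred in the windows of *Hoxd9* and *Hoxd3os1*. Over 32851 promoter windows of the same length, 16% held the LEF/TCF core on either strand, 16.3% the retinoid half-site, 11.9% the CDX core, and 3.22% the HOX-PBX core, so a match to any of the first 3 is common. The *Hoxd9* window was the richest of the 4 in G and C (68.3%), followed by *Hoxd3os1* (54%), *Hoxd8* (46.7%), and *Hoxd4* (39.7%), compared with a median of 52.7% over all windows.

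Total reads and complexity differed among the libraries. The tables of all reads held 8741 cells for XN4, 14452 for XN1, and 18157 for CN4, and the median cell had 12615, 5982, or 9173 reads from 2665, 2379, or 3095 genes. KN1 was read from the normalized table of 3975 cells, with a median of 5862 reads but 833 genes per cell. Each captured gene had 7.39 reads on average in that KN1 table, against 2.14 to 3.90 in the normalized tables of the other lines. Between 37 and 320 cell barcodes were common to each pair of libraries. The NSC label was checked with a list of 10 neural progenitor genes. Of these, 9 in XN1, 9 in KN1, and 10 in CN4 were captured in at least 1% of the cells, but 4 in XN4. Over all genes listed, 12762 of 26007 reached this mark in XN4 and 11955 of 24486 in XN1. For KN1 it was 10818 of 14672, and for CN4 12412 of 25685. In XN4, *Fabp7* and *Hes5* were at 0 and *Sox2* was captured in 0.561% of the cells.

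The *Hoxd* cluster was transcribed in XN4 and CN4, at a low cell fraction in KN1, and almost not at all in XN1. At least 1 member was captured, that is, had at least 1 read, in 1920 cells of XN4 (22.0%, 21.1% to 22.9%) and 5822 of CN4 (32.1%, 31.4% to 32.8%), compared with 157 of KN1 (3.95%, 3.37% to 4.60%) and 11 of XN1 (0.0761%, 0.038% to 0.136%). The intervals of the 4 lines did not overlap. XN4 and XN1 were thus far apart although both were kept at the same nominal concentration of XAV939. In the study's list of derivations, XN4 and CN4 came from the same series, and XN1 and KN1 from a different series by another experimenter. Differences between lines and between derivation series therefore cannot be told apart here.

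**Figure D1:**
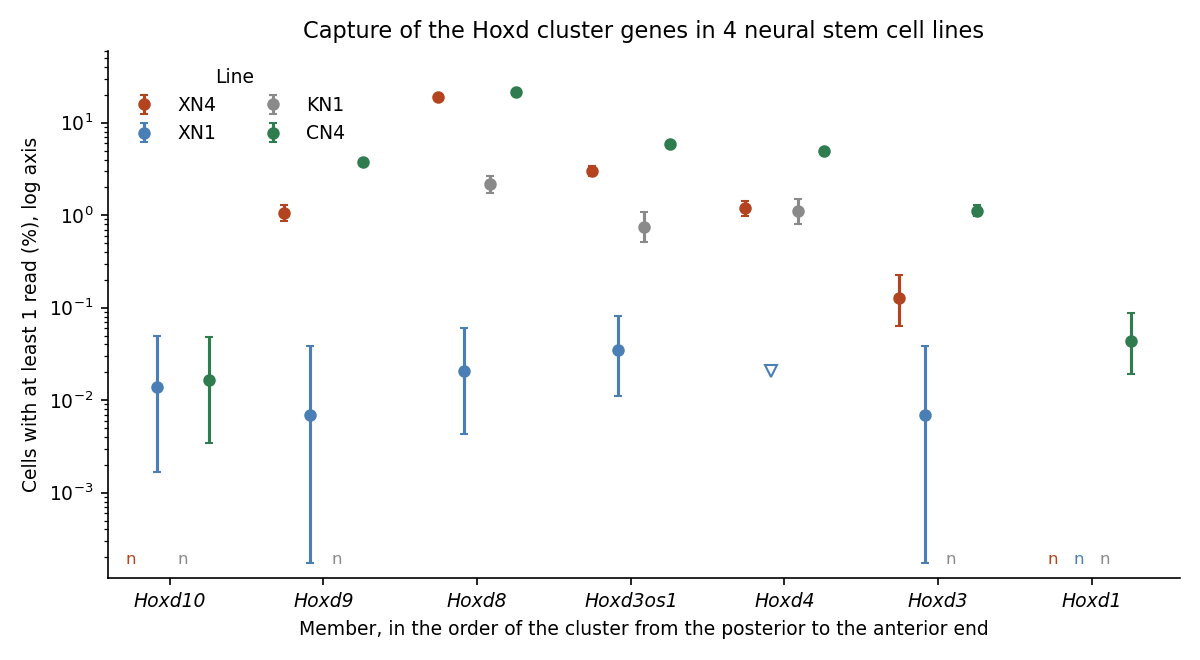
Percentage of cells with at least 1 read (vertical log axis) of each member in XN4, XN1, KN1, and CN4, with 95% exact binomial intervals as bars. The open triangle is the limit allowed by 0 cells, n marks a gene not listed for that line, and *Hoxd8* in XN4 (18.8%) and CN4 (21.7%) lies above every other point.

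*Hoxd8* was the leading member in each line except XN1. It was captured in 1644 cells of XN4 (18.8%, 18.0% to 19.6%), 86 of KN1 (2.16%, 1.73% to 2.67%), and 3931 of CN4 (21.7%, 21.1% to 22.3%). In XN1, 3 of 14452 cells held *Hoxd8* reads (0.0208%, 0.00428% to 0.0607%), 4 reads in all. The order CN4, XN4, KN1, XN1 was thus separated beyond counting error at each step, but the step from CN4 to XN4 was small and depended on how a cell was scored. When at least 2 reads were required, XN4 (11.4%) came before CN4 (7.68%). *Hoxd8* carried 2.46 reads per captured cell in XN4 and 1.53 in CN4.

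*Hoxd4*, a gene of the neck and hindbrain level, was captured in 104 cells of XN4 (1.19%, 0.973% to 1.44%), 44 of KN1 (1.11%, 0.805% to 1.48%), and 889 of CN4 (4.90%, 4.59% to 5.22%). XN4 and KN1, neighbors in this order, did not differ beyond counting error. No *Hoxd4* read was found in XN1, and 0 of 14452 cells allows a share of up to 0.0208% (a floor of 3 cells), or 0.0255% by the exact interval. *Hoxd9*, the most posterior member above 1%, was captured in 93 XN4 cells (1.06%, 0.860% to 1.30%), 680 CN4 cells (3.75%, 3.47% to 4.03%), and 1 XN1 cell, and was not listed for KN1, a table whose rarest gene was captured in 7 cells.

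*Hoxd3os1* capture had the same order of lines as *Hoxd8*, whose reads cannot be fully told apart from its own. It was captured in 261 cells in XN4 (2.99%, 2.64% to 3.36%), 30 in KN1 (0.755%, 0.510% to 1.08%), and 1067 in CN4 (5.88%, 5.54% to 6.23%), against 5 cells in XN1 (0.0346%). *Hoxd3* reached 203 cells in CN4 (1.118%, 0.970% to 1.28%), compared with 11 cells in XN4 (0.126%) and 1 in XN1. The members at both ends of the group were rare. *Hoxd1* was found in 8 cells of CN4 (0.0441%), and *Hoxd10* in 3 cells of CN4 and 2 of XN1, and neither was listed for XN4 or KN1. Capture of the most posterior genes *Hoxd11*, *Hoxd12*, and *Hoxd13*, which pattern the limb and the tail end, did not exceed 0.0343% in XN4, XN1, or CN4 where listed, and none of them was listed for KN1. Thus, capture fell off on the posterior side of *Hoxd9* in both lines in which the cluster was well represented.

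The number of members in a single cell was mostly 1. In XN4, 1737 cells held 1 member, 173 held 2, and 10 held 3. In CN4, these numbers were 4940, 809, and 69, and 4 cells held 4 members. KN1 had 154 cells with 1 member and 3 cells with 2. Only 1 XN1 cell held 2 members, among 11 XN1 cells with any.

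The balance among the members differed between lines. *Hoxd8* supplied 82.5% of the 4909 cluster reads in XN4 (81.5% to 83.6%), 62.3% of 9666 in CN4 (61.3% to 63.3%), and 54.4% of 889 in KN1 (51.1% to 57.8%). *Hoxd4* made up 4.46% of the cluster reads in XN4, 12.01% in CN4, and 30.5% in KN1. For *Hoxd9*, the shares were 3.63% in XN4 and 8.86% in CN4. The reads of the cluster were thus more concentrated on *Hoxd8* in XN4. Divided by exon length, the level of *Hoxd8* was 10.5 RPM (reads in every 1000000) per kilobase in XN4, 6.40 in KN1, and 12.1 in CN4. The next coding gene in XN4 was *Hoxd9* at 0.594, followed by *Hoxd4* at 0.529 and *Hoxd3* at 0.0408 on the same scale. In CN4, *Hoxd9* (2.22) and *Hoxd4* (2.18) were at similar levels per length, and *Hoxd3* was at 0.337. Before this division, *Hoxd4* had more reads than *Hoxd9*, 219 against 178 in XN4 and 1161 against 856 in CN4. The order of these 2 members thus depends on the division. Whether reads scale with exon length was not tested. The lengths are those of all annotated exons, and intronic reads were included for XN4 and CN4 (not known for KN1), so the values per length do not allow for reads from introns. The KN1 values count reads without ribosomal and mitochondrial genes and those of XN4 and CN4 all reads, so they are read within a line and are not compared between KN1 and the other lines.

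**Figure D2:**
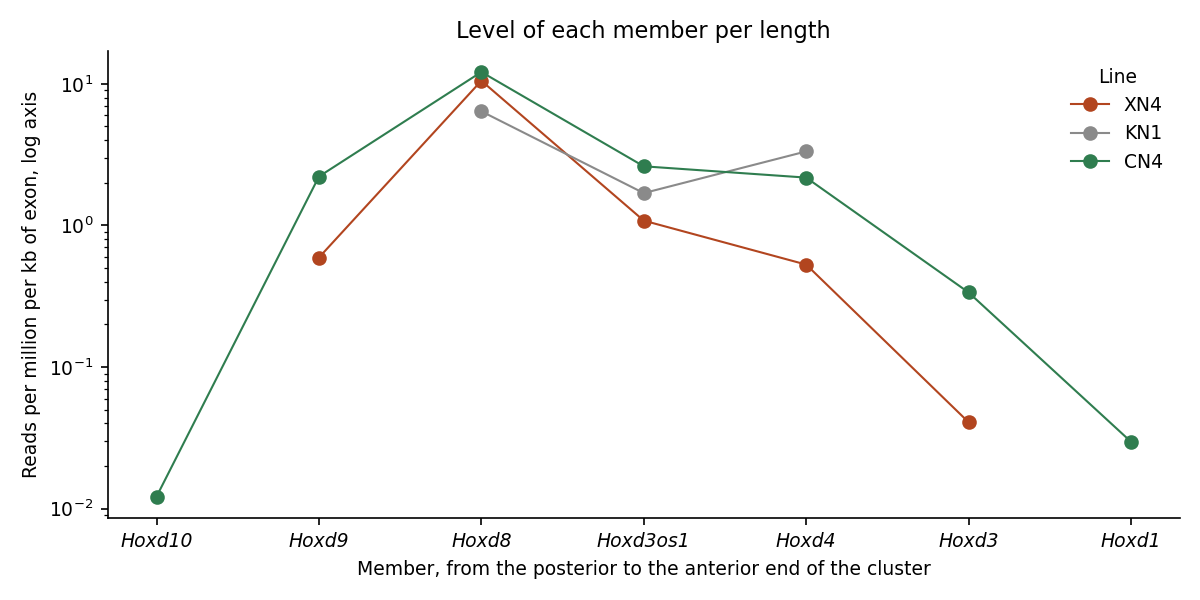
Level in RPM per kilobase of exon (vertical log axis) for each member listed, arranged from the posterior to the anterior end of the cluster, in XN4, KN1, and CN4 (KN1 from the normalized table, without ribosomal and mitochondrial genes, and so on another scale). *Hoxd8* is the peak in the 3 lines, at 10.5, 6.40, and 12.1, and the XN4 points for *Hoxd9*, *Hoxd4*, and *Hoxd3* lie below those of CN4.

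For levels set against each other across the 4 lines, the reads recovered from the normalized tables were used. *Hoxd8* had 39.7 RPM in XN4 (37.8 to 41.6), 17.6 in KN1 (16.0 to 19.2), and 45.2 in CN4 (42.5 to 48.03). In the same cells, *Hoxd8* was captured in 17.85% of XN4 (16.7% to 19.1%) and 20.1% of CN4 (18.8% to 21.5%). These 2 capture intervals overlapped. *Hoxd4* had 2.24 in XN4 (1.81 to 2.74), 9.83 in KN1 (8.70 to 11.1), and 8.67 in CN4 (7.51 to 9.96). CN4 was 1.14-fold higher than XN4 in *Hoxd8* (1.05 to 1.23), but 3.87-fold in *Hoxd4* (3.01 to 5.01), 3.08-fold in *Hoxd9* (2.33 to 4.11), and 2.15-fold in *Hoxd3os1* (1.78 to 2.61). Of the 4 members compared, 3 were past 2-fold higher in CN4, where 15% of 12717 genes were, and none was past 2-fold higher in XN4, where 18.1% were. Genes compared were listed in both normalized tables and captured in at least 1% of the cells of either line. *Hoxd4* passed this filter only through CN4 (4.35%, against 0.942% in XN4), so its call is no independent support. The median fold of the 4 members, *Hoxd4* included, was 2.62, against 0.977 over all genes compared. Without *Hoxd4*, the folds were 1.14, 2.15, and 3.08.

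KN1 differed from XN4 in both directions. *Hoxd4* was 4.39-fold higher in KN1 (3.46 to 5.62), *Hoxd8* was 2.26-fold higher in XN4, and the *Hoxd3os1* reads had a ratio of 1.01 (0.805 to 1.26). Past 2-fold were thus 1 of 3 members in each direction, with 21.7% of 12193 genes past 2-fold higher in KN1 and 22.2% in XN4. *Hoxd4* passed the 1% filter only through KN1 (1.11%), where it was higher. Between CN4 and KN1, *Hoxd8* (2.57-fold, 2.31 to 2.87) and *Hoxd3os1* (2.13-fold, 1.72 to 2.66) were higher in CN4, or 2 of 3 members against 21.4% of 12126 genes, whereas the CN4 to KN1 ratio of *Hoxd4* was 0.882 (0.731 to 1.06). None of the 3 was past 2-fold higher in KN1, where 20.7% of genes were. *Hoxd3os1* passed the 1% filter only through CN4 (5.42%, against 0.755% in KN1), where it was higher. The KN1 levels rested on few cells with many reads each. The 44 KN1 cells with *Hoxd4* carried 6.16 reads each and the 86 with *Hoxd8* 5.63, in a library in which all captured genes averaged 7.39 reads. The mean natural log value, which gives less weight to cells with many reads, changed these comparisons. By this measure, *Hoxd4* was 1.96 times as high in KN1 as in XN4, no longer past 2-fold, and its level in KN1 was 43.4% of that in CN4. *Hoxd8* and *Hoxd3os1* were 4.41 and 1.84 times as high in XN4 as in KN1, and 5.53 and 4.21 times as high in CN4 as in KN1.

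The near absence from XN1 was large compared with the counting error. In the tables of all reads, *Hoxd8* had 28.9 RPM in XN4 and 0.043 in XN1, a ratio of 672 (262 to 2468), and the ratio of CN4 to XN1 was 775 (303 to 2845). With 0 reads in XN1 set at the floor of 3, *Hoxd4* was at least 48.4-fold higher in XN4 and at least 199-fold higher in CN4. *Hoxd3os1* was 57.9-fold higher in XN4 (24.6 to 179) and 140-fold higher in CN4 (59.8 to 432). Reads of free RNA in cells that lack a transcript were not measured within XN4, KN1, or CN4, and XN1, with 13 cluster reads in all, gives no value for them. The 0.0208% of XN1 cells with *Hoxd8*, at a median of 5982 reads per cell, lay far below the 2.16% in KN1 at a median of 5862.

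Capture went with depth in the lines that held the cluster, and the deepest XN1 cells still had almost none. In XN4, *Hoxd8* capture was 5.49% among the cells with the fewest reads when cells were ordered into 10 groups (median 4471) and 41.8% among those with the most (median 39154). In CN4, it was 9.14% and 36.8% at medians of 4052 and 18613 reads. The group of XN1 cells with the most reads (median 11747) held 2 cells with *Hoxd8* among 1445 (0.138%, 0.0168% to 0.499%), compared with 17.5% of XN4 cells (15.04% to 20.2%) at a median of 11450. At like totals of reads CN4 cells were ahead of XN4 cells, 20.4% at a median of 9704 against 11.3% at 9624, but at like numbers of genes the fractions were close, 17.4% (15.6% to 19.2%) at a median of 2500 genes in CN4 and 17.5% at 2466 in XN4. The KN1 cells with the most reads (median of 1839 genes) had 4.53% (2.71% to 7.07%), compared with 9.14% (7.86% to 10.6%) at 1674 genes in CN4.

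**Figure D3:**
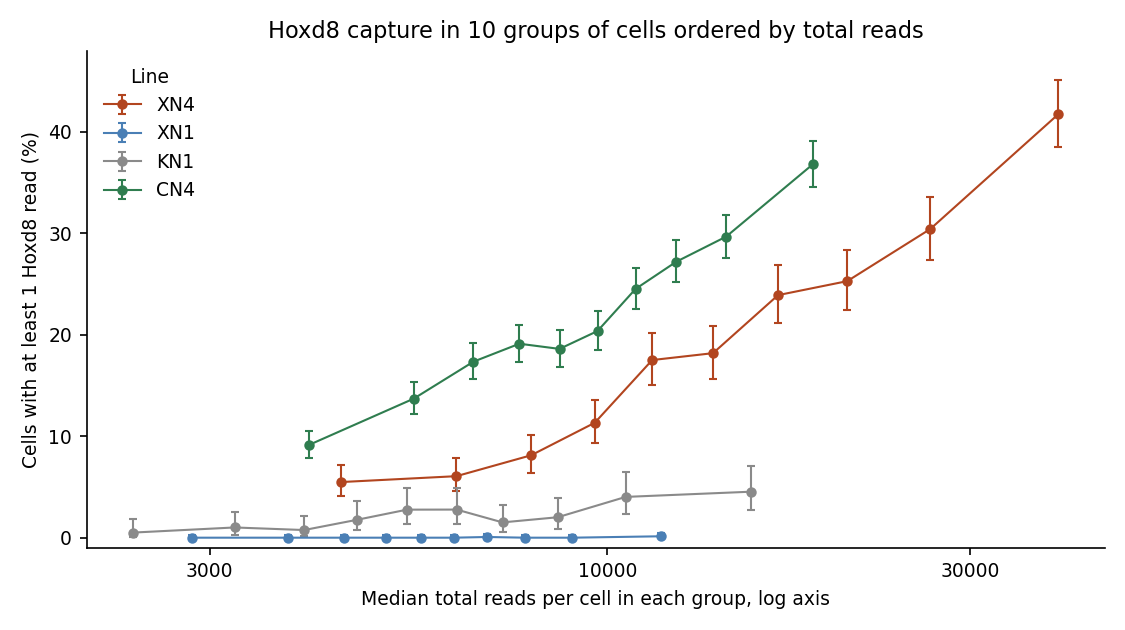
Percentage of cells with at least 1 *Hoxd8* read (vertical axis) in 10 groups of cells of each line ordered by total reads, against the median total reads of the group (horizontal log axis), with 95% exact binomial intervals as bars. Capture goes from 5.49% to 41.8% in XN4 and from 9.14% to 36.8% in CN4, does not exceed 4.53% in KN1, and stays at or below 0.138% in XN1.

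With every cell cut down at random to 3200 reads in the normalized tables, *Hoxd8* remained in 9.43% of 3384 XN4 cells (8.46% to 10.5%), 1.88% of 3396 cells of KN1 (1.45% to 2.40%), and 11.6% of 3158 cells of CN4 (10.5% to 12.7%). Cells with fewer reads were left out, 543 in XN4, 776 from XN1, 579 in KN1, and 290 from CN4. The median thinned cell still held 1649 genes in XN4, 764 in KN1, and 1846 in CN4. Thinning thus matched total reads but not genes detected, and KN1 fractions remain subject to that difference. Thinned *Hoxd4* was captured in 0.473% of XN4, 1.03% of KN1, and 2.53% of CN4 cells, *Hoxd9* in 0.532% of XN4 and 1.52% of CN4 cells, and *Hoxd3os1* in 1.33%, 0.559%, and 2.95% of XN4, KN1, and CN4 cells. XN1 gave no value, as none of the members was listed in its normalized table.

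The genes flanking the cluster were captured in the 4 lines, XN1 included. *Mtx2*, which encodes a mitochondrial outer membrane protein and lies beyond *Hoxd1*, was captured in 27.7% of XN4, 15.2% of XN1, 2.57% of KN1, and 32.6% of CN4 cells in the tables used for capture. *Lnpk*, an endoplasmic reticulum protein gene on the other side, was captured in 16.7%, 17.4%, 4.35%, and 28.2% of the cells in the same order of lines. For every 100 *Mtx2* cells there were 67.8 *Hoxd8* cells in XN4, 84.3 in KN1, and 66.4 in CN4, but 0.137 in XN1. For every 100 *Lnpk* cells, the numbers were 112.4, 49.7, and 76.8, against 0.119 in XN1, so the place of KN1 among the 3 lines depended on the flanking gene used. Of the other neighbors, *Evx2*, a homeobox gene adjacent to *Hoxd13*, was found in 1 cell each of XN4 and CN4, while *Hnrnpa3* (an RNA-binding protein), *Atp5g3* (ATP synthase), *Chn1* (a Rac GTPase regulator), and *Atf2* (a transcription factor) were each captured in at least 8.53% of the cells of every line. *Haglr*, the antisense transcript beside *Hoxd1*, was not listed under this symbol for any line.

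Compared with the rest of the Hox genes, XN4 stood apart. Of 39 coding Hox genes in the mouse, 33 were listed for XN4. Of these, 3 were captured in at least 1% of XN4 cells, namely *Hoxd4*, *Hoxd8*, and *Hoxd9*. In XN1 there were 6 such genes of 32 listed, all of the *Hoxa* cluster, in KN1 14 of 18, and in CN4 26 of 36. Among all genes listed, 12762 of 26007 in XN4, 11955 of 24486 in XN1, 10818 of 14672 in KN1, and 12412 of 25685 in CN4 reached 1%. Fewer genes were listed for KN1, so its count has another base. Of all coding Hox reads, *Hoxd* genes supplied 95.7% in XN4, but 0.0749% in XN1, 2.81% in KN1, and 2.57% for CN4. The paralogs of the XN4 members were nearly empty there. *Hoxb8* and *Hoxc8* were captured in 0.0686% and 0.0801% of XN4 cells, compared with 18.8% for *Hoxd8*, whereas in CN4 they were captured in 74.8% and 47.9%, against 21.7% for *Hoxd8*. *Hoxa4*, *Hoxb4*, and *Hoxc4* did not exceed 0.126% in XN4, and *Hoxa9*, *Hoxb9*, and *Hoxc9* did not exceed 0.0458%. The highest Hox gene of another cluster in XN4 was *Hoxa5* at 0.400%. In CN4, the summed level of the coding *Hoxd* genes was 46.0 RPM, against 414 for *Hoxa*, 977 for *Hoxb*, and 356 for *Hoxc*, so the cluster was the lowest of the 4 there, while in XN4 it was the highest, 31.9 against 1.01, 0.299, and 0.114.

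**Figure D4:**
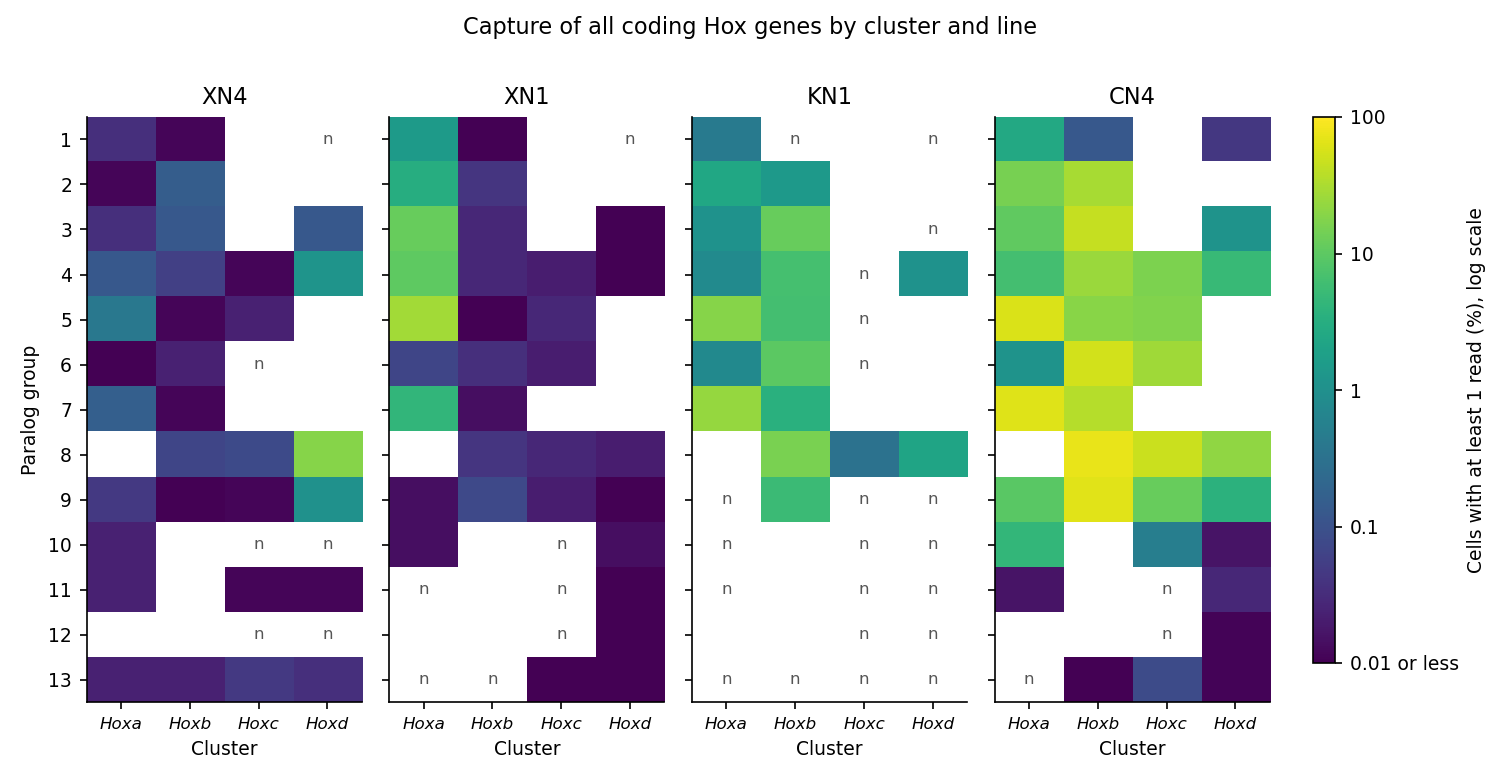
Percentage of cells with at least 1 read (color, log scale; 0.01% or less in the darkest color) of each coding Hox gene by cluster (columns) and paralog group (rows) in XN4, XN1, KN1, and CN4. White cells have no gene in the mouse, and n marks a gene not listed for the line. In XN4, the 3 genes at or above 1% are in the *Hoxd* column, and in XN1 the 6 such genes are in the *Hoxa* column.

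XN4 also stood apart in the summed level of markers of another cell type, whereas CN4 did not. All 10 genes of a list of connective tissue markers were captured in at least 1% of XN4 cells (6.72% to 97.7%). Their summed level in the normalized tables was 8662 RPM, compared with 144 in XN1, 7.66 in KN1 (3 genes listed), and 202 in CN4. The lowest in XN4, *Col1a2*, was captured in more XN1 cells (24.0%), though its level was higher in XN4 (132 RPM against 76.7). *Col3a1*, a fibrillar collagen, was captured in 97.7% of XN4 cells, *Dcn*, a matrix proteoglycan, in 87.5%, and *Prrx1*, a mesenchymal homeobox gene, in 86.7%. Among 10 genes of paraxial and limb mesoderm, 3 passed 1% in XN4, *Meox2* (62.5%), *Meox1* (32.4%), and *Tcf15* (1.11%), whereas the limb genes *Tbx5* (0.0915%) and *Tbx4* (0.0572%) were rare, and the summed level of the list in the same tables was 442 RPM, compared with 2.31 to 7.68 in the other lines. The neural progenitor list summed to 1441 RPM in XN4 in these tables, the lowest of the 4 lines, where the range of the others was 2126 to 8417. Most of the XN4 sum was *Vim* alone, with 1325 RPM there, against 1668 in XN1, 487 in KN1, and 2265 in CN4. None of 10 neuronal genes and 3 of 10 neural crest genes passed 1% in XN4. Over all genes listed, 12762 of 26007 passed 1% in XN4 and 12412 of 25685 in CN4. The part of the marker differences in the *Hoxd* result was not tested. CN4, the other line with the cluster, held *Sox2* in 85.9% and *Fabp7* in 98.5% of its cells, and of the connective tissue list 6 of 10 genes passed 1%, from *Col3a1* at 1.03% to *Prrx1* at 38.8%.

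Within XN4 and CN4, *Hoxd8* was captured both in cells with and in cells without each marker compared, after thinning to equal total reads. The number of genes detected was not matched. In thinned XN4 cells, it was captured in 9.58% of those with *Col3a1* (8.59% to 10.6%) and in 3 of 84 without (3.57%, 0.743% to 10.1%), in 9.70% with *Meox2* and 9.18% without, and in 9.62% with *Prrx1* and 8.62% without. In thinned CN4 cells, it was captured in 11.5% with *Sox2* and 11.8% without, in 11.9% with *Prrx1* and 11.4% without, and in 6 of the 50 cells with *Sox10*, a neural crest and oligodendrocyte lineage gene, against 11.6% of the rest. Cells with *Mki67* or *Top2a*, genes of dividing cells, held *Hoxd8* in 8.70% and the others in 9.75% in XN4, and in 11.3% and 12.05% in CN4. In thinned KN1 cells, *Hoxd8* was captured in 4 of 405 cells with *Sox2* (0.988%, 0.270% to 2.51%) and in 2.01% of those without (1.53% to 2.57%). All these intervals overlapped.

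Summed over pairs, members of the cluster were captured together in more cells than their separate fractions gave, but this did not hold for every pair. The expected number of cells with both genes of a pair was summed over 20 strata of cells of like total reads, so that deep cells did not create pairs by themselves. Over the 6 pairs of *Hoxd4*, *Hoxd8*, *Hoxd9*, and *Hoxd3os1* in XN4, 195 double captures were observed and 134.1 expected, a ratio of 1.45 (1.26 to 1.67). In CN4, with *Hoxd3* also above 1%, the 10 pairs gave 1034 and 888.6, a ratio of 1.16 (1.09 to 1.24). With at least 2 reads required, the CN4 ratio was 1.19 and its interval included 1 (0.947 to 1.48). Pairs share genes and cells, which makes these intervals too narrow. In KN1, the single pair above 1%, *Hoxd4* and *Hoxd8*, was seen in 3 cells against 1.48 expected (0.417 to 5.91), a number too small to separate from 1. Without the pairs whose genes overlap in the annotation, the ratios were 1.45 (1.16 to 1.80) in XN4 and 1.20 (1.11 to 1.29) in CN4.

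*Hoxd8* and its neighbor *Hoxd9* were the pair with intervals above 1 in both lines outside the overlapping genes. They were found together in 41 XN4 cells, where 25.5 were expected, a ratio of 1.61 (1.15 to 2.18), and in 235 CN4 cells, where 172 were expected, a ratio of 1.37 (1.20 to 1.55). Over all genes captured in at least 1% of the cells, the middle 95% of ratios with *Hoxd8* ran from 0.854 to 1.20 in XN4 (12761 genes) and from 0.903 to 1.14 in CN4 (12411 genes), with medians of 1.01 and 1.00. Intervals above 1 were found for 2 of the 3 members compared with *Hoxd8* in XN4, against 2.7% of all genes there, and for 2 of 4 in CN4, against 2.67%. The *Hoxd9* ratio exceeded that of 99.98% of genes in XN4 and 99.93% in CN4, although ratios of rarely captured genes scatter more. *Hoxd3os1* with *Hoxd8* had 1.42 (1.16 to 1.72) in XN4 and 1.15 (1.02 to 1.28) in CN4, and *Hoxd4* with *Hoxd8* had 1.26 (0.868 to 1.77) and 1.10 (0.969 to 1.25), which includes 1. In CN4, *Hoxd4* with *Hoxd9* was at 0.996 (0.709 to 1.36) and *Hoxd3* with *Hoxd8* at 1.06 (0.795 to 1.39). *Hoxd3os1* in CN4 was at 1.36 with *Hoxd9* (1.05 to 1.725) and at 0.718 with *Hoxd3* (0.344 to 1.32).

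The ratios of the 6 flanking genes with *Hoxd8* were 0.990 to 1.122 in XN4 and 0.969 to 1.01 in CN4, and every interval included 1. Among the 22 Hox genes of the other clusters above 1% in CN4, ratios with *Hoxd8* ranged from 0.960 for *Hoxc9* to 1.16 for *Hoxa6*, with 18 above 1 and 9 intervals above 1, among them *Hoxb7* (1.11, 1.06 to 1.16) and *Hoxc8* (1.10, 1.06 to 1.15). Of these 22, 1 (*Hoxa6*) lay above the middle 95% of all genes, and 53.4% of all genes had ratios above 1. The interval narrows with the number of cells, so the share of intervals above 1 also depends on how often a gene was captured. All 10 genes of dividing cells were below 1 with *Hoxd8* in both lines, 0.884 to 0.986 in XN4, where 3 intervals were below 1 (1.09% of all genes), and 0.958 to 0.997 in CN4, where none was (1.03% of all genes). None of the 10 lay below the middle 95% of all genes in either line, and 41.6% of all genes in XN4 and 46.5% in CN4 had ratios below 1. In KN1, the 9 neural progenitor genes compared had a median ratio of 1.10 with *Hoxd8*. Of these, 5 were above 1 and *Sox2* alone had an interval below 1 (0.473, 0.190 to 0.976), as had 0.462% of all genes. That ratio lay inside the middle 95% of all genes in KN1 (0 to 2.17). Of the 4 neural progenitor genes compared in XN4, *Nes* was at 0.836 (0.718 to 0.968), below the middle 95% of all genes, *Notch1* was at 1.11 (1.02 to 1.21), and the other intervals included 1. In XN4, the cofactor gene *Meis2* was found with *Hoxd8* in 224 cells against 165.8 expected (1.35, 1.18 to 1.54), and the connective tissue list had a median ratio of 1.02, with 7 of 10 intervals including 1. The other 3 were *Col1a1* with 1.20 (1.11 to 1.31), *Postn* with 1.14 (1.05 to 1.23), and *Lum* with 1.10 (1.02 to 1.19), of which *Col1a1* lay above the middle 95% of all genes.

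**Figure D5:**
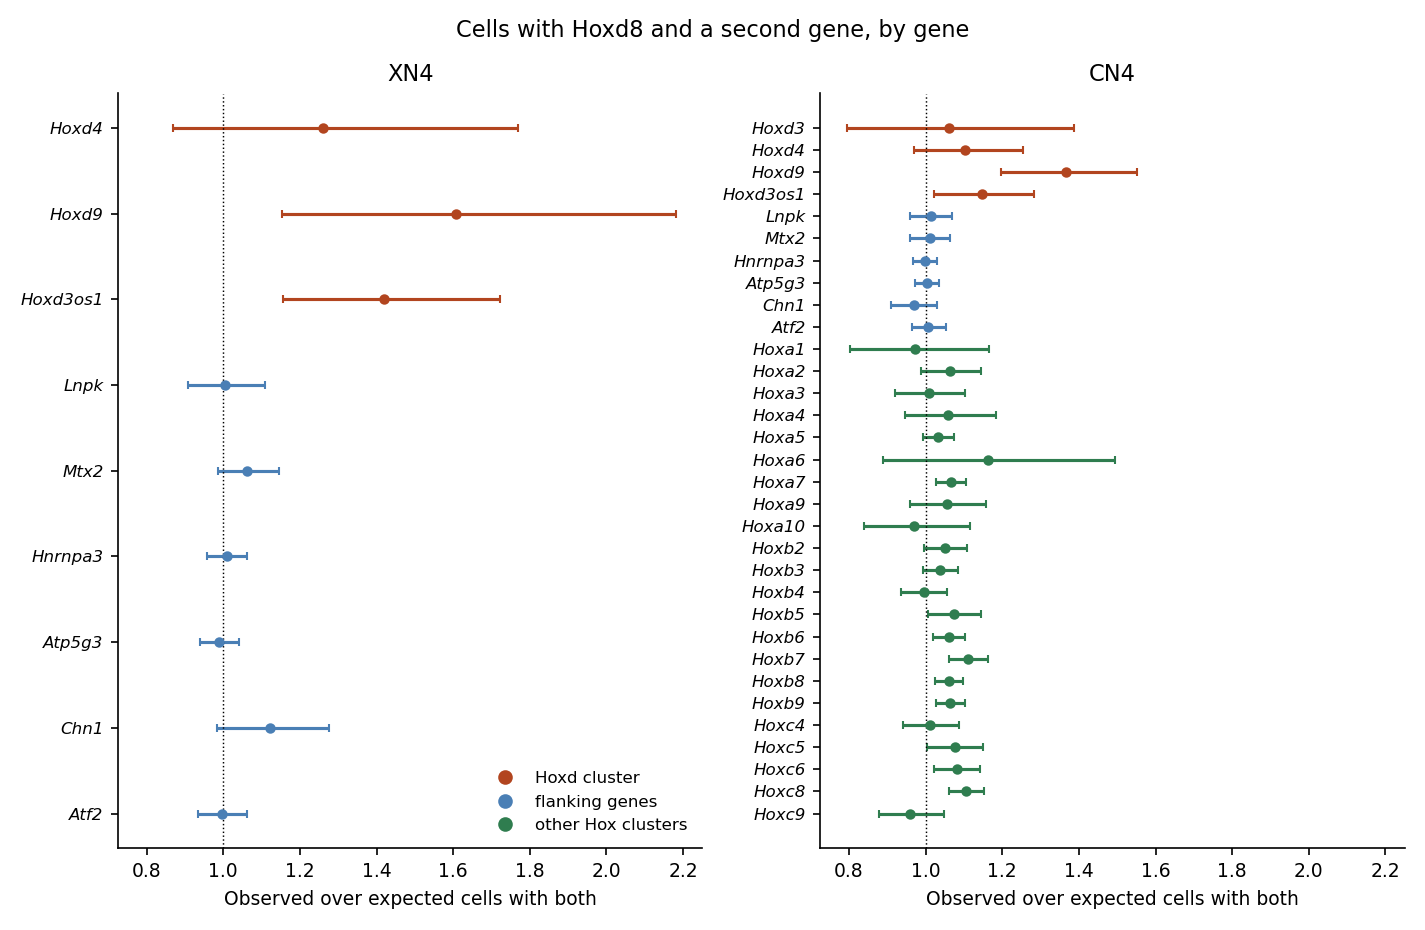
Ratio of observed to expected cells with *Hoxd8* and a second gene (horizontal axis) in XN4 and CN4, with exact Poisson 95% intervals of the observed number as bars and 1 as the dotted line. In XN4, *Hoxd9* (1.61) and *Hoxd3os1* (1.42) lie right of the flanking genes (0.990 to 1.122), and in CN4 *Hoxd9* (1.37) lies right of the 22 genes of the other Hox clusters (0.960 to 1.16).

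The genes most like each member over the lines were found from the share of each line in the summed RPM of the 4 normalized tables, over 13801 genes, with the distance being the part of these shares that differs (0 for the same shares, 1 for none in common). *Hoxd8* had 38.7% of its summed level in XN4, 17.1% in KN1, and 44.1% in CN4, and the nearest genes were *Gm10681* (distance 0.0247), *Tsix* (0.0593), and *Sh2d4b* (0.0733). *Hoxd3os1* was at 0.147 from *Hoxd8*, with 0.225% of genes nearer, and *Hoxd4* at 0.303, with 26.4% nearer. The nearest genes of *Hoxd4* were *Gm26903* (0.0182), *Myh7b* (0.0374), and *Srgap3* (0.0416), those of *Hoxd9* were *Nudt7* (0.00322), *Fbp1* (0.0211), and *Arsi* (0.0224), and those of *Hoxd3os1* were *Tec* (0.0753) and *Tsix* (0.0878). With 4 lines of 1 library each, such likeness has 4 points. A gene not listed in a normalized table counted as 0 there, as *Hoxd9* did in KN1. The KN1 share of *Hoxd4* (47.4%) rested on the reads of 44 cells. By the mean natural log value, *Hoxd4* in KN1 was at 43.4% of CN4, so its nearest genes depend on the measure of level.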

How the data were processed

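Single cells of the lines were captured with the BD Rhapsody system, which gave 1 whole-transcriptome library per line. Raw read counts per cell and gene were deposited for XN4, XN1, and CN4, made with the BD Rhapsody WTA Analysis Pipeline 1.12.1 on GRCm38 and GENCODE M19 with intronic reads included. Reads were not collapsed to molecules. The second kind of table, deposited by the authors for the 4 lines, holds natural log values, ln(1 + 10000 × reads / total), from Seurat 4.3.0 for a random part of the cells without ribosomal and mitochondrial genes. These were turned back into reads, and 100% of values came out whole within 0.01. KN1 was read from this table only, and its pipeline settings were not given in the sources used here.

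Capture of a gene means 1 read or more in the cell. Each member has 1 value per line, with exact (Clopper-Pearson or Poisson) 95% intervals (Python 3.11.15, SciPy 1.17.1). Reads are not independent molecules. The mean natural log value was the alternative to reads as a level. No test between lines was made, and a gene was counted as higher past 2-fold in RPM. Co-capture was compared with the number expected within 20 strata of total reads, and the code was tested on simulated data. Doublets were not called, and a count without the deepest 5% of cells was made instead. Promoters and positions came from RefSeq (GRCm38.p6) and GENCODE M21, a later release than that of the counts. The members, the gene lists, and the alternatives were chosen with earlier results of these data known. Named were the 7 members, the other *Hoxd* genes, the neighbors, the 3 nearest genes of each member captured in at least 1% of a line, and up to 4 examples of each list. Some further genes of the lists were named after their values were seen. Results for some genes are not reported here.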

Additional observations from a re-analysis of the deposited data

How the results depend on the processing

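The fraction of cells with at least 1 member kept the order CN4, XN4, KN1, XN1 under the settings that gave a value, except that XN4 (13.2%) came before CN4 (10.7%) with at least 2 reads required. That setting gave 3.12% in KN1 and 0.00692% in XN1. The fractions below lay outside the interval of the fraction in the report, although some of their own intervals overlapped it. After thinning to 3200 reads, it was 11.3% in XN4 and 17.6% in CN4. Without the 5% of cells with the most reads, it was 20.5% in XN4 and 30.7% in CN4, and with only the cells that the normalized tables hold it was 20.7% and 29.7%. With the coding members only, it was 20.2% in XN4, 3.19% in KN1, and 28.4% in CN4. The ratio of observed to expected pairs rose when cells were not divided by depth, to 2.09 in XN4 and 1.34 in CN4, and to 1.88 and 1.54 in thinned cells without strata. It kept its side of 1 in XN4 and CN4 with 5 or 50 strata, with strata of genes detected, and without the deepest cells. With at least 2 reads, the CN4 ratio was 1.19 and its interval (0.947 to 1.48) included 1. XN1 had no value in the normalized tables after thinning, since no member was listed there. Of the cells with *Hoxd8*, 39.2% in XN4, 18.6% in KN1, and 64.5% in CN4 held 1 read, so depth limits the statements on *Hoxd1*, *Hoxd3*, and *Hoxd10*, for which lack of reads is not lack of transcription. No paired analysis was possible because each line had 1 library.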

Other observations

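Hox proteins bind DNA together with TALE homeodomain cofactors, among them those encoded by the *Meis* and *Pknox* genes. *Meis1* was captured in 55.4% of XN4, 15.8% of XN1, 31.0% of KN1, and 46.3% of CN4 cells. The level of *Meis1* in the normalized tables had another order, with KN1 (399 RPM) first, followed by XN4 (189.8), CN4 (133), and XN1 (42.2). *Meis2* had 27.9 RPM in XN4 (26.3 to 29.5) and 28.3 in XN1 (26.0 to 30.8), which overlap, compared with 602 in KN1 and 126 in CN4. *Pknox2* was highest in XN4 both in cells (48.2%, against 4.88% to 12.2%) and in level (139 RPM, against 13.2 to 92.8).

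Of 15 genes known to regulate Hox clusters, 12 were captured in at least 1% of the cells of each line. Over all genes listed, 12762 of 26007 reached 1% in XN4 and 11955 of 24486 in XN1. For KN1 it was 10818 of 14672, and for CN4 12412 of 25685. *Rarb*, a retinoic acid receptor that is itself a target of retinoic acid, was captured in 63.8% of XN4, 21.0% of XN1, 5.53% of KN1, and 17.1% of CN4 cells, and *Rarg* in 31.7%, 5.70%, 1.18%, and 2.89%. Their levels in the normalized tables were 288, 60.7, 60.4, and 38.7 RPM for *Rarb* and 67.6, 13.2, 8.56, and 5.88 RPM for *Rarg*, highest in XN4 and lowest in CN4. The Polycomb genes *Ezh2* (40.5%, 42.3%, 32.3%, and 73.7%) and *Suz12* (39.2%, 33.5%, 13.01%, and 53.0%) were captured in XN1, where the *Hoxd* cluster was hardly captured, and in the other lines. Their levels were 148.7, 189.4, 412, and 352 RPM for *Ezh2* and 101, 106, 128, and 147 for *Suz12*, so that KN1, lowest in cells, was not lowest in level. *Cdx1* and *Cdx4*, posterior regulators of the clusters, did not exceed 0.0686% where listed, and *Cdx2* was not listed for any line.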
